A study of Homo sapiens with 12 samples.

Results

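The transcripts of 10 transcription factors were measured by bulk RNA-seq in WI-38 cells, a strain of human diploid lung fibroblasts. These were the AP-1 subunits FOS, FOSB, FOSL1, FOSL2, JUN, JUNB and JUND, the related factors ATF3 and MAFF, and the zinc finger factor EGR1. They were taken by gene symbol from the 57773 genes listed in the count files, and all 10 were among the 21518 genes that passed the filter on low counts. The 12 libraries fell into 4 groups of 3, and every culture had been transfected with a 25 nM pool of siRNAs. Proliferating cells received non-targeting siRNA (siCtrl) and were kept for 8 days with DMSO, the solvent of the drug. The other 3 groups were made senescent over 8 days with etoposide at 50 µM, which breaks DNA by trapping a topoisomerase, after transfection with siCtrl, with siNTRK2 against the mRNA of the receptor TrkB, or with siBDNF against the mRNA of its ligand BDNF. No proliferating cells with siNTRK2 or siBDNF were analysed here, and each target was silenced with 1 pool in 1 cell strain. The study's methods state in general terms that its experiments were repeated independently, but the labels do not say that the 3 libraries of a group came from separate cultures, so p-values measure only the spread between these libraries.

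AP-1 is a dimer of basic leucine zipper (bZIP) proteins. A JUN protein can pair with itself, with a FOS protein or with some ATF and MAF proteins, whereas FOS proteins need a partner, and the dimers bind short palindromic DNA sites. FOS, FOSB, JUN, JUNB, ATF3 and EGR1 are textbook immediate early genes, which growth factors, stress and MAP kinases switch on within minutes and which usually fall back soon after, while FOSL1 and FOSL2 respond later and JUND is expressed more evenly. TrkB is a receptor tyrosine kinase that signals through the ERK pathway, a well known inducer of these genes in neurons.

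Library totals ran from 31567912 to 72328151 counts. The labels were checked with the silenced genes and a senescence marker. NTRK2 had 7, 15 and 10 counts with siCtrl in senescent cells and 0 in every siNTRK2 library, so it was at least 3.37-fold lower there when 3 counts per library are taken as the floor. BDNF was 1.79 lower on the log2 scale in siBDNF than in siCtrl senescent cells, and CDKN1A, the cell cycle inhibitor p21, was 1.62 higher in senescent than in proliferating siCtrl cells. All 10 fibroblast markers were detected in every library. Their sums in normalised CPM (counts scaled to a common library size) were 32257 to 34172 in proliferating cells. Senescent cells had 23264 to 25071 with siCtrl, 27309 to 30215 with siNTRK2 and 24063 to 24632 with siBDNF. The 5 leukocyte markers summed to 49.7 to 56.6 CPM in proliferating cells, 108 to 115 in senescent cells with siCtrl, 77.3 to 80.7 with siNTRK2 and 180.0 to 184 with siBDNF, and CD68 made up most of these sums. PTPRC, the pan-leukocyte marker, was at 0 in every proliferating library and at 0.793 to 1.07 CPM in senescent siCtrl libraries. The epithelial list summed to 0.893 to 1.13 CPM in proliferating and 3.15 to 5.98 CPM in senescent libraries. The endothelial list summed to 75.2 to 78.0 CPM in proliferating cells. In senescent cells it summed to 34.4 to 36.2 CPM with siCtrl, 34.8 to 40.9 with siNTRK2 and 24.6 to 25.7 with siBDNF. The lower sum does not describe each gene of this list. Of its 3 genes tested between senescent and proliferating siCtrl cells, 2 were higher and 1 lower (edgeR adjusted p under 0.05). Their median log2 fold change was 1.21. Mitochondrial transcripts took 1.598 to 1.99% of counts in proliferating cells, 3.33 to 3.65% in senescent cells with siCtrl, 2.502 to 2.85% with siNTRK2 and 1.78 to 2.38% with siBDNF. The part of these differences in the results below was not tested, and in bulk RNA fewer cells of a kind and less RNA per cell cannot be told apart.

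The start regions of these genes hold sequences known to bind signal-responsive factors. RefSeq promoters (GRCh38.p14) were matched by symbol for 9 of the 10 genes, FOSL1 being the exception, and ATF3 and MAFF had 2 starts each, which gave 11 promoters of 250 bases before and 50 bases after the start. Stretches of 150 bases before the start are shown for 6 genes whose promoters hold cAMP response elements (CRE), the JUN-type site or the CArG box, the textbook binding sites of CREB and ATF proteins, of JUN and ATF dimers, and of serum response factor. Capitals mark matches on either strand to the CRE TGACGTCA, its core TGACGT, the JUN-type site TGACATCA and the CArG box, the sequences being read 5′ to 3′ along the strand of the gene.
FOS, chr14:75278678-75278827, plus strand: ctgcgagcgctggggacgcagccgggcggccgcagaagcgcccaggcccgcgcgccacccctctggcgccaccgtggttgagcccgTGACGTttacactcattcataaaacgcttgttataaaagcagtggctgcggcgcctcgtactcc
FOSB, chr19:45467846-45467995, plus strand: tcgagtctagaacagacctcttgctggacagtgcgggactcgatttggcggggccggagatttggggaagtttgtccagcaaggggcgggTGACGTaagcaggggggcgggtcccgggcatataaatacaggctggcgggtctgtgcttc
JUN, chr1:58784048-58784197, minus strand: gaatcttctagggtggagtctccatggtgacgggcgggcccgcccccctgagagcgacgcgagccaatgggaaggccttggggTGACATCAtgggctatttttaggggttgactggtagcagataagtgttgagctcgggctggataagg
JUND, chr19:18281623-18281772, minus strand: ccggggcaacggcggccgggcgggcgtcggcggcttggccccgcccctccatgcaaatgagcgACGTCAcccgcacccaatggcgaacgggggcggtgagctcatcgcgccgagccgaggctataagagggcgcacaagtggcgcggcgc
MAFF, chr22:38201844-38201993, plus strand: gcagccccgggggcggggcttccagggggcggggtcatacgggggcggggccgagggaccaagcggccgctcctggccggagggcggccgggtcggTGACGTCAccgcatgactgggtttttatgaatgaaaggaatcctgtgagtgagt
EGR1, chr5:138465329-138465478, plus strand: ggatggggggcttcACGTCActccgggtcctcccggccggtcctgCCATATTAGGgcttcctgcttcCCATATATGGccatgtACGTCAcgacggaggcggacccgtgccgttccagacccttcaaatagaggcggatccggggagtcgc

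The CRE core was found in 6 of the 11 promoters and in 7.98% of all 35116 promoters searched. The 6 were 1 each of FOS, FOSB, FOSL2, JUND, MAFF and EGR1. It began 64 bases before the start of FOS, 60 before that of FOSB and 66 before that of FOSL2. The full CRE, which holds the core on both strands, was found in JUND and MAFF and in 1.85% of all promoters. The JUN-type site lay 67 bases before the start of JUN and 123 before the upstream start of ATF3, and 2.61% of all promoters held it. EGR1 held 2 CArG boxes, beginning 105 and 83 bases before its start, against 1.29% of promoters with any, and it also held the site GCGNGGGCG of its own protein, as did 9.43% of promoters. An AP-1 site, TGANTCA, was found in 1 of the 11 promoters, that of FOSL2 just past its start, and in 7.71% of all promoters. The sequence TATAAA was found in FOS, FOSB, JUNB and 1 ATF3 promoter and in 11.5% of all. JUNB held none of the CRE, JUN-type or CArG sequences in this window, and these matches describe letters, not occupied sites. Sequence more than 250 bases before the start was not searched for any gene.

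**Figure D1:**
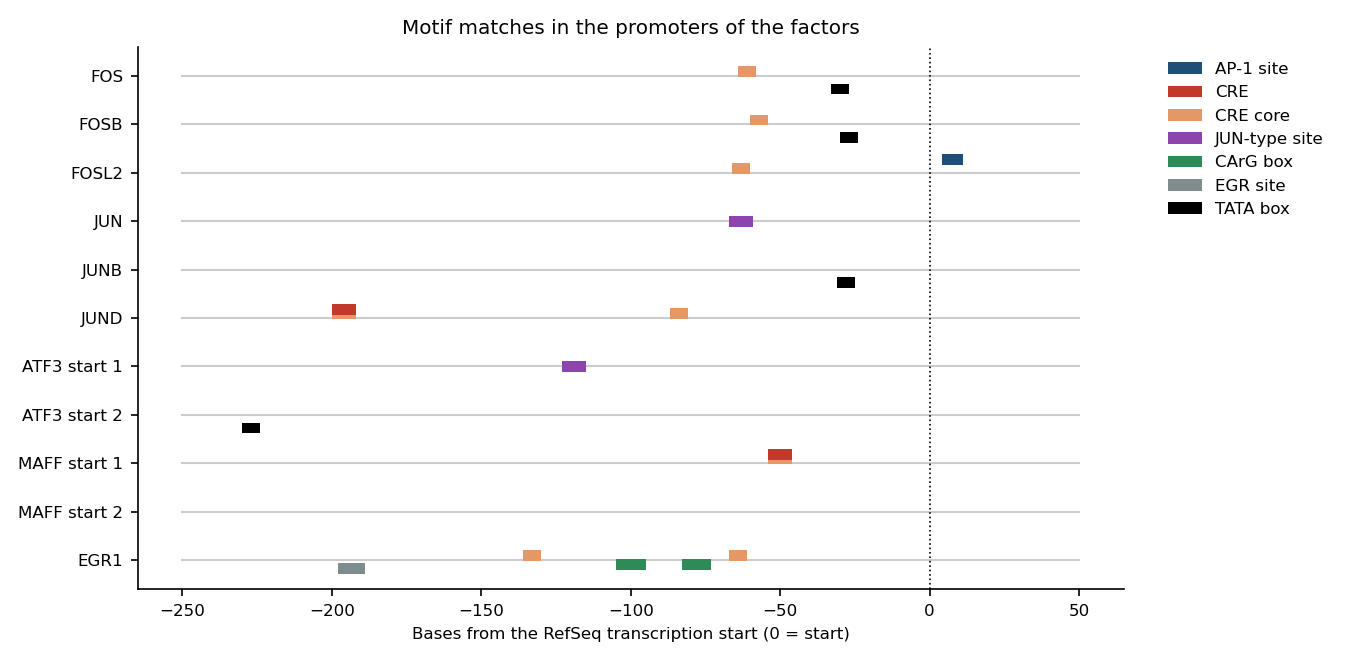
Motif matches (coloured blocks) along the 11 RefSeq promoters of 9 of the factors, by bases from the transcription start. The CRE core sits near 60 bases before the start in FOS, FOSB and FOSL2, and EGR1 carries the 2 CArG boxes.

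Levels were first compared per kilobase of exon, since the genes differ in length. The length was that of all annotated exons of a gene, and the order and shares depend on it. FOSL1, also called FRA1, was the most abundant of the 10 in each of the 4 groups, at 64.2 ± 0.608 CPM per kilobase in senescent siCtrl cells (SD, n = 3). JUND followed at 38.0 ± 1.06, JUN at 31.0 ± 1.05 and JUNB at 22.9 ± 0.960 CPM per kilobase in the same cells. These 4 did not overlap their neighbours in that order. FOSL2, EGR1 and MAFF came next, at 8.70 ± 0.0724, 8.69 ± 0.641 and 7.78 ± 0.451 CPM per kilobase, and each overlapped the next of these 3. ATF3 stood below them at 3.62 ± 0.143 CPM per kilobase. FOS and FOSB were lowest, at 0.365 ± 0.131 and 0.245 ± 0.0412 CPM per kilobase, and overlapped each other. The order was the same in proliferating and siNTRK2 cells, with JUND and JUN overlapping in the latter, and in siBDNF cells EGR1 stood above FOSL2. In mean CPM without the length, JUN was above JUND in every group. It was above FOSL1 with siNTRK2 (117 against 110) and siBDNF (134 against 131). In proliferating (106 against 127) and senescent siCtrl cells (112 against 121) it was below FOSL1.

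FOSL1 therefore made up most of the FOS family transcripts. Its share of the summed level per kilobase of the 4 FOS genes was 83.3 ± 0.486% in proliferating cells and 87.3 ± 0.282% in senescent siCtrl cells, where FOSL2 held 11.8 ± 0.186%. FOS and FOSB together stayed below FOSL2 in every group, at 0.496 ± 0.176% and 0.332 ± 0.0549% in senescent siCtrl cells. The JUN family was more evenly made up, with JUND at 41.4 ± 0.124%, JUN at 33.8 ± 0.686% and JUNB at 24.9 ± 0.807% of its sum in those cells. The share of JUNB was 18.6 ± 0.601% in proliferating cells and 20.9 ± 1.21% with siNTRK2, both ranges below those of senescent cells with siCtrl or siBDNF. The summed JUN family level was 112 ± 2.48 CPM per kilobase with siBDNF and 91.8 ± 2.48 with siCtrl in senescent cells, without overlap. It ran from 73.4 to 94.0 CPM per kilobase over the siNTRK2 libraries, which overlapped the siCtrl ones, and replicate 2 was the lowest.

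**Figure D2:**
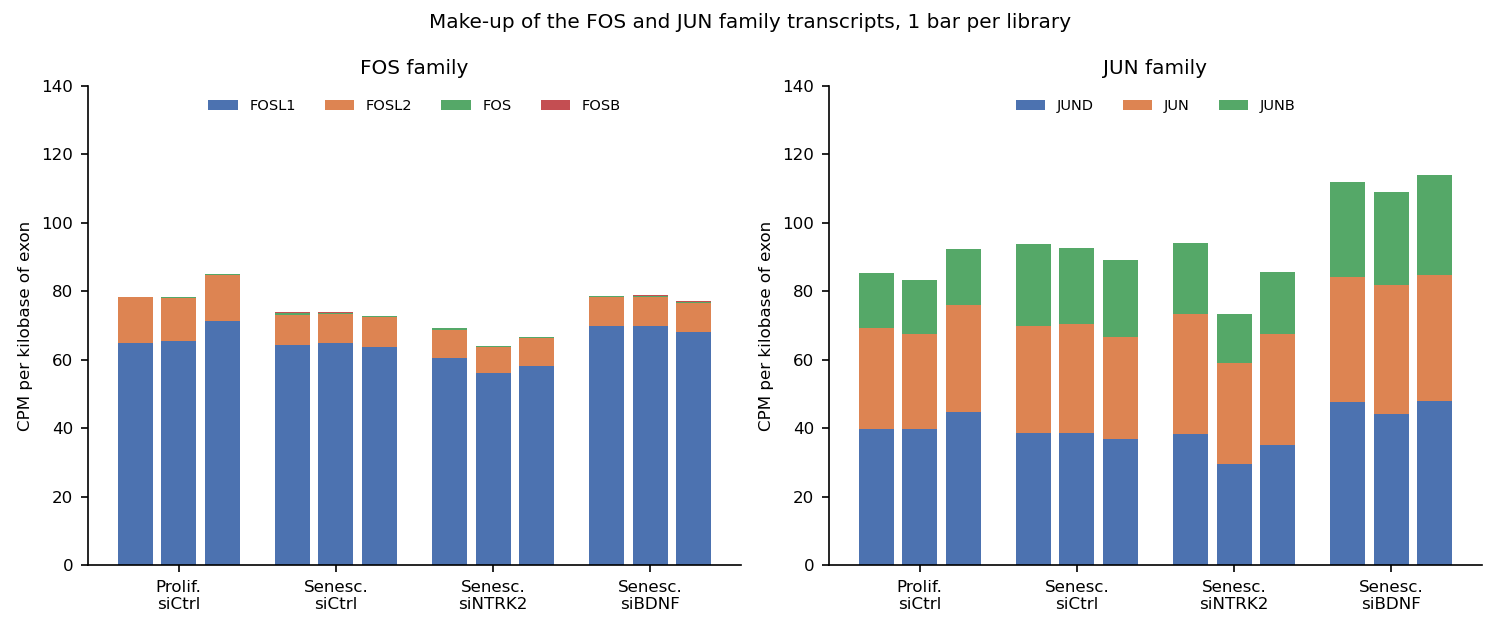
Stacked level per kilobase of exon of the FOS genes (left) and JUN genes (right) in each of the 12 libraries. FOSL1 fills most of every FOS bar while FOS and FOSB are barely visible, and the 3 siBDNF libraries have the tallest JUN bars, with sums of 109 to 114 CPM per kilobase.

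The comparison of senescent with proliferating siCtrl cells asks how these factors stood after 8 days of etoposide. FOSB and FOS rose most, followed by ATF3, MAFF and JUNB, whereas FOSL2 and EGR1 fell. Thus 7 of 10 passed an adjusted p under 0.05 by edgeR's quasi-likelihood test with Benjamini-Hochberg adjustment over all genes, 5 higher and 2 lower, beside 58.1% of all genes tested, 29.8% higher and 28.3% lower. Of the 7, 2 had an absolute log2 fold change over 1, the added cutoff in the methods of the study, which 16.7% of all genes passed. The median log2 fold change of the 10 was 0.29 against 0.02 for all genes tested. The groups did not overlap for 9 of the 10, as for 61.3% of all genes.

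In the FOS family the rare and the abundant members went different ways. FOS (ENSG00000170345, hg19 chr14:75745529-75748933), the founding partner of JUN, stood at 0.538, 0.499 and 0.379 CPM in proliferating libraries and at 1.62, 0.810 and 1.06 CPM in senescent ones. Every senescent library was above every proliferating one, though the senescent values spread widely and rested on 47 to 91 counts. FOS rose by 1.27 ± 0.30 on the log2 scale (SE, edgeR adjusted p = 7.90e-04). FOSB (ENSG00000125740, hg19 chr19:45971253-45978437), its close relative, went from 0.395, 0.499 and 0.271 CPM to 1.62, 1.21 and 1.25 CPM. The groups were well apart, again on few counts, 10 to 35 against 70 to 91. FOSB rose by 1.75 ± 0.28 (edgeR adjusted p = 8.59e-06), 3.36-fold. FOSL2 (ENSG00000075426, hg19 chr2:28615315-28640184), also called FRA2, fell from 94.97, 92.0 and 97.7 CPM to 62.2, 61.9 and 62.9 CPM. The senescent libraries were tightly grouped and far below the proliferating ones, a log2 change of -0.61 ± 0.05 (edgeR adjusted p = 5.46e-11). FOSL1 (ENSG00000175592, hg19 chr11:65659520-65668044) stood at 123, 123 and 134 CPM in proliferating and 121, 122 and 120.0 CPM in senescent libraries. The ranges were close but apart, and its log2 change of -0.06, with a 95% interval of -0.16 to 0.03, did not pass the test (edgeR adjusted p = 0.252).

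In the JUN family, JUNB was the member that passed. JUNB (ENSG00000171223, hg19 chr19:12902300-12904129), which often tempers JUN, stood at 29.6, 28.9 and 30.3 CPM in proliferating and 43.8, 40.7 and 40.9 CPM in senescent libraries. The groups were clearly apart, and JUNB rose by 0.50 ± 0.08 on the log2 scale (edgeR adjusted p = 1.06e-05). Its exons overlap those of HOOK2 on the opposite strand, which had 466 to 1101 counts against 1121 to 3666 for JUNB, and no source used here says whether reads were counted by strand. JUN (ENSG00000177606, hg19 chr1:59242517-59249720) stood at 107, 99.8 and 113 CPM and then at 113, 116 and 108 CPM. Its groups overlapped, with a log2 difference of 0.08 and a 95% interval of -0.04 to 0.20 (edgeR adjusted p = 0.236). JUND (ENSG00000130522, hg19 chr19:18390504-18392432), which is known to restrain growth in fibroblasts, stood at 76.7, 76.9 and 86.5 CPM and then at 74.6, 74.2 and 70.9 CPM. The senescent libraries were all slightly lower, and the log2 difference of -0.13, with a 95% interval of -0.27 to 0.01, did not pass (edgeR adjusted p = 0.119). With a correction for gene length and GC content, chosen after seeing the data, both JUND and FOSL1 passed as lower, at -0.25 and -0.12. JUND also passed with no filter on low counts, at -0.14 (edgeR adjusted p = 0.0302).

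ATF3 (ENSG00000162772, hg19 chr1:212738676-212794119), a stress-induced factor that often represses, stood at 8.36, 8.55 and 7.63 CPM in proliferating and 14.8, 14.8 and 13.8 CPM in senescent libraries. It was higher in each senescent library and rose by 0.82 ± 0.09 on the log2 scale (edgeR adjusted p = 4.56e-08). MAFF (ENSG00000185022, hg19 chr22:38596774-38612514), a small MAF protein without a transactivation domain, went from 30.0, 27.8 and 30.1 CPM to 46.1, 41.0 and 43.9 CPM. The groups did not overlap, and MAFF rose by 0.58 ± 0.06 (edgeR adjusted p = 7.34e-09). Its exons overlap those of PLA2G6 on the opposite strand, which had 94 to 174 counts. EGR1 (ENSG00000120738, hg19 chr5:137801168-137804992), which couples growth signals to transcription, went from 40.6, 38.7 and 41.2 CPM to 26.6, 29.5 and 25.7 CPM. All senescent libraries were lower, by -0.56 ± 0.07 on the log2 scale (edgeR adjusted p = 8.73e-08). All 7 calls of this comparison were also made when any 1 library was left out.

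**Figure D3:**
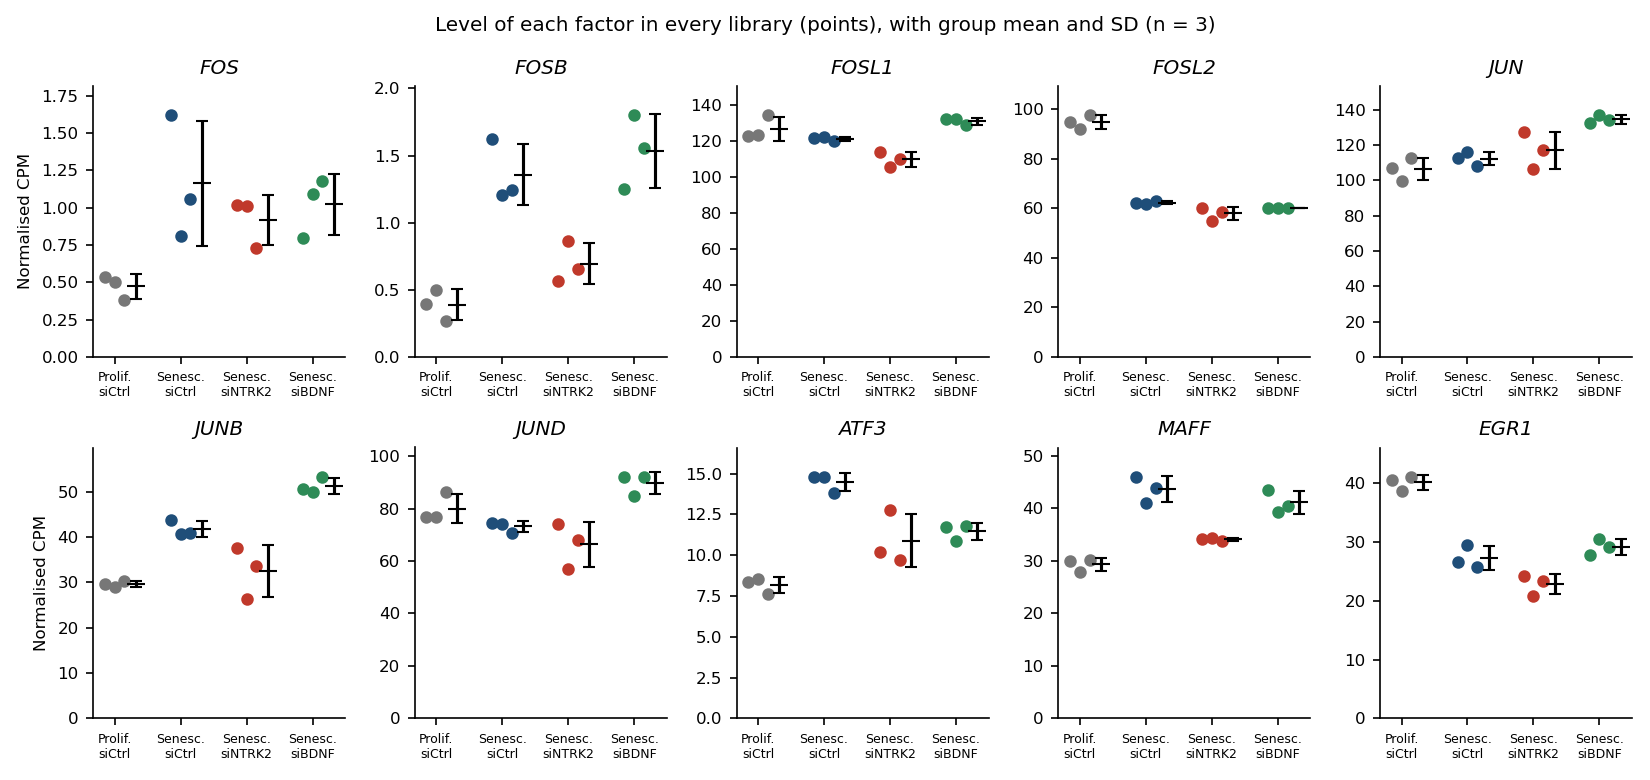
Normalised CPM of each factor in every library (points), with the mean and SD of each group of 3 beside them; axes start at 0. FOS, FOSB, ATF3, MAFF and JUNB stand higher in senescent than in proliferating siCtrl libraries, and FOSL2 and EGR1 lower.

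The comparison of siNTRK2 with siCtrl in senescent cells asks how the factors stood when TrkB mRNA was silenced. FOSB, ATF3, JUNB, MAFF, EGR1 and FOSL1 were lower with siNTRK2, 6 of 10 by the same edgeR test, beside 21.1% of all genes tested in either direction and 10% in the lower one. None of the 10 was higher. None changed by an absolute log2 fold change over 1, as 0.957% of all genes did. The median log2 fold change of the 10 was -0.30 against -0.00236 for all genes. The groups did not overlap for 7 of the 10, as for 32.8% of all genes.

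FOSB changed most. Its siNTRK2 libraries stood at 0.566, 0.867 and 0.652 CPM against 1.62, 1.21 and 1.25 CPM with siCtrl. Each siNTRK2 library was below each siCtrl one, between the proliferating and senescent siCtrl ranges. FOSB fell by 0.97 ± 0.26 on the log2 scale (SE, edgeR adjusted p = 0.00895), and without siCtrl replicate 1, its highest library, the change was -0.83 and did not pass (edgeR adjusted p = 0.0610). FOS stood at 1.02, 1.01 and 0.726 CPM. These values lay within and just below the siCtrl range, with a log2 difference of -0.34 and a wide 95% interval of -0.91 to 0.24 (edgeR adjusted p = 0.442). FOSL1 stood at 114, 106 and 109.7 CPM, all below the siCtrl libraries, and fell by 0.14 ± 0.05 (edgeR adjusted p = 0.0295). That call was lost in 8 of 14 alternatives, among them the length and GC correction (-0.08, edgeR adjusted p = 0.131) and leaving out any siCtrl library or siNTRK2 replicate 2 or 3, which gave -0.11 to -0.14 and edgeR adjusted p of 0.0740 to 0.146. FOSL2 stood at 60.3, 54.97 and 58.6 CPM, also below every siCtrl library, and its difference of -0.10 did not pass (edgeR adjusted p = 0.132). With the length and GC correction FOSL2 passed as lower, at -0.12 (edgeR adjusted p = 0.0220).

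JUNB stood at 37.6, 26.2 and 33.5 CPM with siNTRK2, against 40.7 to 43.8 CPM with siCtrl. All 3 were lower and spread widely, replicate 2 falling below the proliferating cells. JUNB fell by 0.36 ± 0.08 (edgeR adjusted p = 0.00200), and by 0.22 without siNTRK2 replicate 2 (edgeR adjusted p = 0.0134). JUND showed the same low library, at 74.1, 57.1 and 67.9 CPM. Its siNTRK2 and siCtrl ranges overlapped, and the difference of -0.14 did not pass (edgeR adjusted p = 0.155), was -0.04 without siNTRK2 replicate 2 and passed at -0.23 without siNTRK2 replicate 1 (edgeR adjusted p = 0.0194). JUN stood at 127, 107 and 117 CPM. Its values lay on both sides of the siCtrl range, with a log2 difference of 0.06 and a 95% interval of -0.06 to 0.17 (edgeR adjusted p = 0.516).

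ATF3 stood at 10.2, 12.8 and 9.70 CPM with siNTRK2 against 13.8 to 14.8 CPM with siCtrl. It was lower in every library and fell by 0.41 ± 0.09 (edgeR adjusted p = 0.00185). MAFF stood at 34.1, 34.3 and 33.8 CPM against 41.0 to 46.1 CPM. Its siNTRK2 libraries were nearly equal and all below siCtrl, a fall by 0.36 ± 0.06 (edgeR adjusted p = 7.97e-05). EGR1 stood at 24.1, 20.9 and 23.4 CPM, below the siCtrl range of 25.7 to 29.5 CPM, and fell by 0.26 ± 0.07 (edgeR adjusted p = 0.00790). It did not pass without siCtrl replicate 2 (-0.18, edgeR adjusted p = 0.0682) or without siNTRK2 replicate 2 (-0.19, edgeR adjusted p = 0.0625). FOSB, JUNB, ATF3 and MAFF were thus lower with siNTRK2 and higher with senescence, whereas EGR1 was lower in both comparisons, which share the senescent siCtrl libraries.

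The comparison of siBDNF with siCtrl in senescent cells asks the same of the ligand. The 3 JUN genes were higher and ATF3 was lower, 4 of 10 by the edgeR test. Of all genes tested 20.5% were called, 10.3% of all being higher and 10.2% lower. None of the 10 passed the added fold cutoff, as 0.609% of all genes did. The median log2 fold change of the 10 was 0.10 against 0.00398 for all genes. The groups did not overlap for 6 of the 10, as for 37.3% of all genes.

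JUN stood at 132, 137 and 134 CPM with siBDNF and at 108 to 116 CPM with siCtrl. Every siBDNF library was higher, and JUN rose by 0.26 ± 0.06 on the log2 scale (SE, edgeR adjusted p = 0.00139). JUNB stood at 50.7, 49.8 and 53.4 CPM, also above all siCtrl libraries, and rose by 0.30 ± 0.08 (edgeR adjusted p = 0.00900). JUND stood at 92.1, 85.0 and 92.3 CPM against 70.9 to 74.6 CPM and rose by 0.29 ± 0.07 (edgeR adjusted p = 0.00287). The JUNB call was lost without siBDNF replicate 3 (0.26, edgeR adjusted p = 0.0539). ATF3 stood at 11.7, 10.8 and 11.8 CPM, below every siCtrl library, and fell by 0.34 ± 0.09 (edgeR adjusted p = 0.00872). It did not pass without siBDNF replicate 2 (-0.30, edgeR adjusted p = 0.0682).

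The other 6 factors did not pass with siBDNF. FOSL1 stood at 132, 132 and 129 CPM, above all siCtrl libraries, with a log2 difference of 0.11 (edgeR adjusted p = 0.0984). It passed at 0.17 under scaling by library totals, at 0.19 with the length and GC correction and at 0.11 with the 2 groups alone (edgeR adjusted p = 0.00785, 3.65e-04 and 0.0389). FOSL2 was at 60.0 CPM in each siBDNF library, just below the siCtrl range, with a difference of -0.05 that was 0.0033 under library totals. FOSB stood at 1.25, 1.80 and 1.56 CPM and FOS at 0.794, 1.09 and 1.18 CPM. Both overlapped siCtrl, with 95% intervals of -0.31 to 0.70 and -0.73 to 0.41 on the log2 scale. MAFF at 43.5, 39.4 and 40.4 CPM and EGR1 at 27.7, 30.5 and 29.2 CPM overlapped siCtrl as well, with intervals of -0.21 to 0.03 and -0.04 to 0.24.

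The siNTRK2 and siBDNF comparisons share the same senescent siCtrl libraries, so the 2 siRNAs were also compared directly. Here 7 of 10 were lower with siNTRK2 than with siBDNF, beside 16.7% of all genes tested and 7.86% in the lower direction. None was higher, against 8.84% of all genes. Under scaling by library totals the share of higher calls among all genes went from 1903 of 3595 to 1349 of 3576, and the same count of 7 was found. With siBDNF against siCtrl that scaling moved it from 2227 of 4412 to 3139 of 4527, with 5 of the 10 called. FOSB differed most, by -1.17 ± 0.26 on the log2 scale (edgeR adjusted p = 0.00234), and was the 1 member past the added cutoff, beside 1.16% of all genes. JUNB differed by -0.66 ± 0.08 (edgeR adjusted p = 1.53e-06) and JUND by -0.43 ± 0.07 (edgeR adjusted p = 5.14e-05). EGR1, MAFF, FOSL1 and JUN differed by -0.35, -0.27, -0.25 and -0.20. No siNTRK2 library of these 7 genes overlapped a siBDNF library, as for 34.2% of all genes. JUN did not pass without siNTRK2 replicate 2 (-0.13, edgeR adjusted p = 0.109) or siBDNF replicate 2 (-0.18, edgeR adjusted p = 0.0672). ATF3, lower than siCtrl with both siRNAs, differed between them by -0.07 with a 95% interval of -0.27 to 0.12. FOS and FOSL2 did not pass either, with intervals of -0.76 to 0.40 and -0.15 to 0.05.

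**Figure D4:**
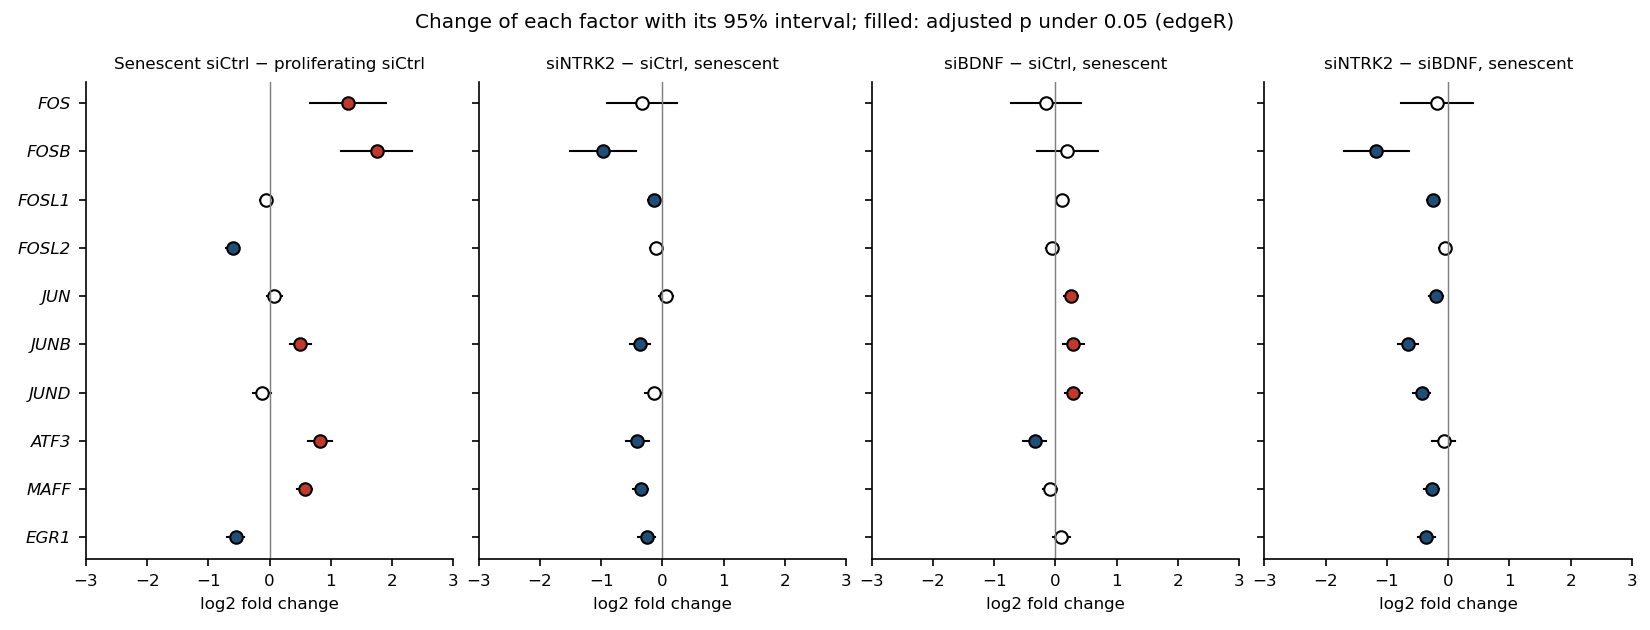
Log2 fold change of each factor with its 95% interval in the 4 comparisons; filled points passed an adjusted p under 0.05 in edgeR, red higher and blue lower. With siNTRK2 the 6 filled points lie below 0, with siBDNF the 3 JUN genes lie above it, and in the direct comparison the 7 filled points lie below it.

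Other genes of the pathway were described from lists by role, each count standing beside the share of all genes called: 58.1% with senescence, 21.1% with siNTRK2, 20.5% with siBDNF and 16.7% between the siRNAs. Among partners of AP-1 and related bZIP factors, 12 of 13 were tested, and with senescence 5 rose and 6 fell, with a median of -0.17. The small MAF MAFK rose by 0.96 on the log2 scale, and JDP2 and BATF3, which pair with JUN, fell by 0.996 and 1.10. With siNTRK2, 1 partner was higher, the stress factor ATF4 at 0.25, and 1 was lower, MAFK at -0.20, a call lost in 7 of 14 alternatives. With siBDNF 3 were higher, among them CREB1 at 0.29, and only 1 call was left without siBDNF replicate 2. In the direct comparison 2 partners were higher and 2 lower with siNTRK2. The share of the 12 called was thus 91.7% with senescence, 16.7% with siNTRK2, 25% with siBDNF and 33.3% between the siRNAs.

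Among 23 upstream kinases and serum response factors, all tested, 5 rose and 9 fell with senescence, with a median of -0.02. The 14 called were 60.9% of the list, near the 58.1% of all genes. The kinase RPS6KA1 and MEF2D rose by 0.69 and 0.56, and MAPK10, a JUN kinase, and RPS6KA3 fell by 1.04 and 0.74. With siNTRK2 2 were higher, MAPK8 at 0.26 and MAP2K4 at 0.18, which act in JUN phosphorylation, and 4 were lower, among them MAPK3, which encodes ERK1, at -0.40 and its target ELK1 at -0.20. These 6 calls, 26.1% of the list beside 21.1% of all genes, were 1 without siCtrl replicate 1 and 2 without siNTRK2 replicate 2. With siBDNF 4 were higher and 4 lower, with MAPK3 again lower at -0.32 and MAP2K5 at -0.26, and RPS6KA3 and ELK4 both higher at 0.28. The MAP2K5 call was lost in 8 of 14 alternatives and the ELK4 call in 5, and with siNTRK2 those of MAPK8, MAP2K4 and ELK1 in 3, 4 and 4. The 8 calls with siBDNF, 34.8% of the list beside 20.5% of all genes, were 2 without siCtrl replicate 1, 3 without siBDNF replicate 1 or 2, and 5 without siCtrl replicate 3, without siBDNF replicate 3 or with no filter. In the direct comparison 1 was higher and 2 were lower, 13% of the list beside 16.7% of all genes, and 0 to 2 calls were left when any 1 library was omitted.

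Among 25 other immediate early genes, 24 were tested, and with senescence 10 rose and 9 fell, with a median of 0.004. The 19 called were 79.2% of those tested, beside 58.1% of all genes. The nuclear receptor NR4A2 rose by 2.93 and EGR2, a relative of EGR1, by 2.32, while the matricellular gene CCN1 fell by 0.96 and NAB2, a corepressor of EGR1, by 0.76. With siNTRK2 1 was higher, CCN1 at 0.31, and 3 were lower, among them PTGS2 at -1.07 and IER3 at -0.25, and with the length and GC correction 10 passed. The 4 called were 16.7% of those tested, beside 21.1% of all genes. With siBDNF 11 were higher and 2 lower, with a median of 0.17. EGR2 at 0.68 and PTGS2 at 0.48 were the largest rises, lost in 8 of 13 and 6 of 14 alternatives, and CCN2 and CCN1 were lower at -0.20 and -0.18. The 13 calls, 54.2% of those tested beside 20.5% of all genes, were 8 without siCtrl replicate 1 or 3 or siBDNF replicate 1 or 3. In the direct comparison 10 were lower and 2 higher with siNTRK2, 50% of those tested beside 16.7% of all genes.

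Of 18 textbook targets of AP-1, all tested, 15 rose and 1 fell with senescence, beside 29.8% of all genes higher and 28.3% lower. Their median log2 fold change was 0.83, or 0.77 with MMP9 and MMP13 at their lower bounds. These 2 collagen-degrading proteases had 0 counts in every proliferating library and 2 to 12 in senescent siCtrl ones, at least 2.06-fold and 2.26-fold higher when 3 counts per library are taken as the floor. IL6 was the 1 lower target, at -0.25, and that call was lost in 8 of 14 alternatives. With siNTRK2 10 targets were lower and 2 higher, with a median of -0.21, beside 10% of all genes lower and 11.1% higher. CXCL8, a chemokine of the senescent secretome, stood at 11.9, 13.5 and 14.2 CPM against 35.3, 38.7 and 39.1 CPM with siCtrl and fell by 1.52, while IL1B fell by 1.25 and HBEGF rose by 0.21. With siBDNF 7 targets were higher and 1 lower, with a median of 0.18, beside 10.3% of all genes higher and 10.2% lower. The protease MMP3 at 0.87 and IL1B at 0.63 led the rises, the IL1B call being lost in 3 of 14 alternatives, and the surface receptor CD44 was the lower one at -0.35. Without siCtrl replicate 1, 5 targets passed in place of 8. Between the siRNAs 8 targets were lower and 1 higher with siNTRK2, beside 7.86% and 8.84% of all genes.

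**Figure D5:**
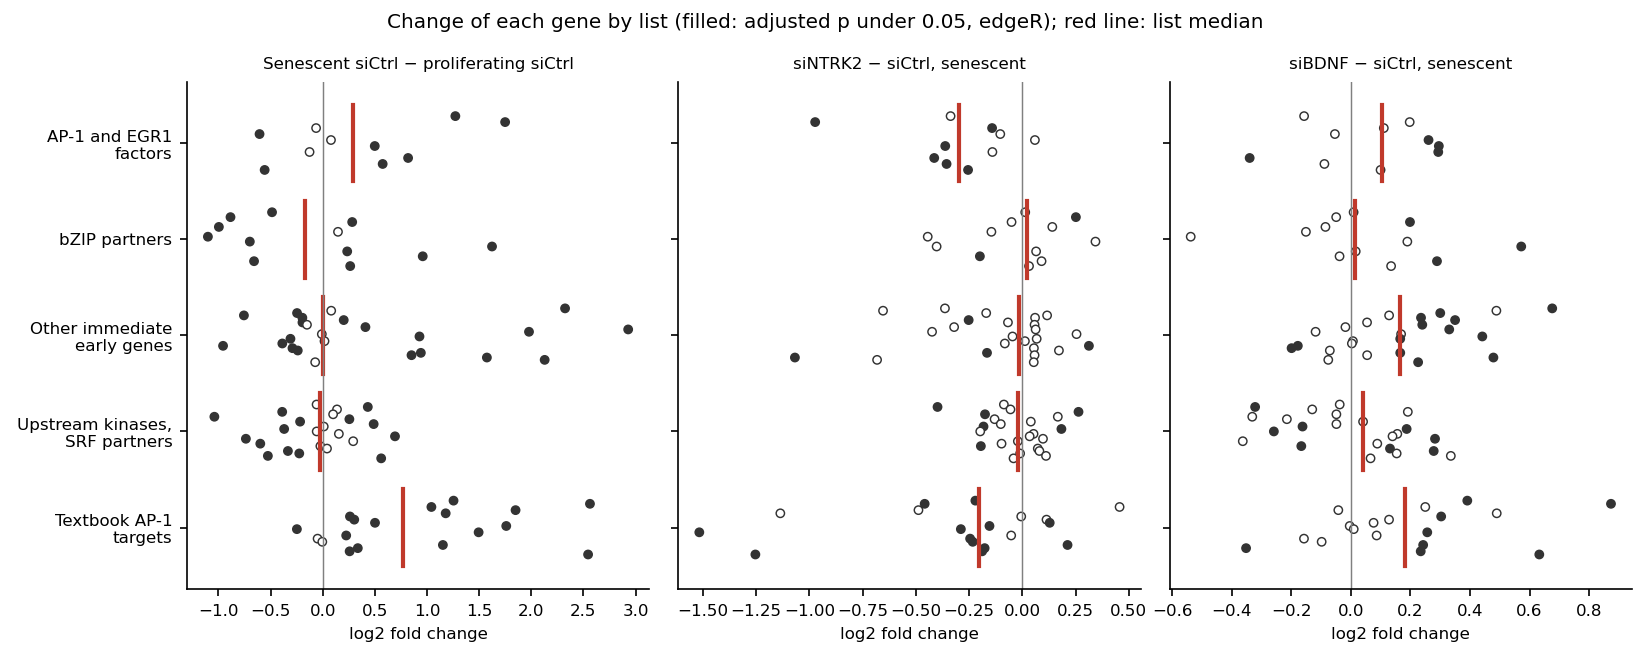
Log2 fold change of every tested gene of the factor group and of 4 pathway lists in the 3 comparisons with a control; filled points passed an adjusted p under 0.05 in edgeR, red lines are list medians, and MMP9 and MMP13 are drawn at their lower bounds in the left panel. The AP-1 targets have a median of 0.77 there, -0.21 with siNTRK2 and 0.18 with siBDNF.

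The pattern over the 12 libraries was finally compared with that of other genes, as the root mean square difference of centred log2(CPM + 1) values, a description with no test. Among 15104 genes with a mean of at least 1 CPM, those most like some of the abundant members were TADA3 for FOSL2 at 0.0368, TMEM132A for JUN at 0.0415, FRMD8 for JUNB at 0.102 and PURA for JUND at 0.0768. RAB3D was most like MAFF at 0.0492, TWIST1 most like EGR1 at 0.0737 and VAMP8 most like ATF3 at 0.0821. For the sparse FOS and FOSB they were ENSG00000248993 at 0.107 and ENSG00000211519, listed as MIR147B, at 0.114. Within the group itself the closest pairs were FOSL1 with JUND at 0.0996 and FOSL2 with EGR1 at 0.119, each farther apart than either gene's own nearest neighbour outside it.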

How the data were processed

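Total RNA was made into stranded mRNA libraries for paired-end sequencing. Per the labels and the study's methods, the authors demultiplexed with bcl2fastq 2.20.0.422, trimmed adapters with Cutadapt, aligned with STAR 2.4.0j to hg19 (Ensembl) and deposited whole-number counts per gene from featureCounts 1.6.4, without normalisation. The strand setting and the treatment of reads shared between genes are not given in the sources used here, so overlapping genes (JUNB, MAFF) are uncertain.

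The 12 libraries were fitted together in edgeR 4.0.16 (R 4.3.3) with TMM scaling, filterByExpr and the quasi-likelihood test, with Benjamini-Hochberg adjustment of the p-values across the 21518 tested genes, with 0.05 as the threshold. Scripts were tested on simulated data. CPM values are TMM-normalised, and levels per kilobase use the exon union of each gene in GENCODE lifted to hg19. A floor of 3 counts per library was used for genes at 0, for counting error only. Alternatives were DESeq2 1.42.0, its size factors, library totals, no filter or at least 10 counts in every library, the 2 groups alone, a replicate block, an added log2 fold cutoff of 1, leaving out each library and, chosen after seeing the data, an offset for length and GC content (splines with 4 degrees of freedom, values for 96.4% of tested genes). Chi-square values per gene of 3.69 to 12.5 between libraries of a group showed no library deposited in duplicate.

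The members and lists were chosen with earlier results of these data known. Named were all members and, per list and comparison with a control, up to 2 genes with the largest rise and 2 with the largest fall among those called, plus for each member the gene outside the group nearest in pattern (2 were computed). NTRK2, BDNF and CDKN1A served as checks. A few genes that this rule named are not reported here. Lists of fibroblast, epithelial, endothelial and leukocyte markers were summed as CPM.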

Additional observations from a re-analysis of the deposited data

Results flagged for a closer look

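The changes with siNTRK2 and with siBDNF, both against the same senescent siCtrl libraries, differed by edgeR's test of the difference itself for 7 of the 10 factors, all lower with siNTRK2. Beside them, 16.7% of all genes tested differed, 7.86% in the lower direction. The differences on the log2 scale were -1.17 for FOSB, -0.25 for FOSL1, -0.20 for JUN, -0.66 for JUNB, -0.43 for JUND, -0.27 for MAFF and -0.35 for EGR1. JUNB, JUND and JUN were above siCtrl with siBDNF, and of these JUNB was also below it with siNTRK2.

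Of 20 other genes named in a comparison with an siRNA, 10 differed by the same test, 6 lower and 4 higher with siNTRK2. Among all genes tested, 7.86% were lower and 8.84% higher. The 20 had been named for the largest called changes with an siRNA against those same siCtrl libraries. A difference between the siRNAs is therefore partly built into the choice, and the count says nothing more about them as a set. Of the 10, the lower ones were IL1B at -1.89, CXCL8 at -1.77, PTGS2 at -1.55, MMP3 at -1.33, EGR2 at -1.04 and IER3 at -0.60. The higher ones were CCN1 at 0.49, ATF4 at 0.30, CCN2 at 0.25 and CD44 at 0.17. No explanation of these differences was tested.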

How the results depend on the processing

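Of 320 member values under alternatives that kept the libraries and 240 that left out 1, 309 and 224 kept their direction and side of the threshold. With the added fold cutoff of 1, the factors called were 2 of 10 with senescence, 0 with siNTRK2, 0 with siBDNF and 1 between the siRNAs. Without 1 library the counts were 7, 4 to 7, 3 to 4 and 6 to 7. None of these alternatives turned a called member. Values that turned, none of them called, were FOS with siBDNF without siCtrl replicate 1 (0.16, range -0.36 to 0.16 over libraries left out), FOSL2 with siBDNF under library totals (0.0033), JUN with siNTRK2 without siNTRK2 replicate 1 (range -0.0075 to 0.13), and, between the siRNAs, ATF3 without siNTRK2 replicate 3 (range -0.19 to 0.0016), MAP2K4 without siNTRK2 replicate 1 or 2 or siBDNF replicate 1 (range -0.045 to 0.050), and ELK1 without siNTRK2 replicate 2 or siBDNF replicate 1 (range -0.087 to 0.012). The cause was not tested.

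Deviations from the group mean were correlated between libraries of different groups. Same-numbered libraries gave r of -0.17 to 0.17 over 18 pairs, mean 0.0168, and the others -0.27 to 0.22 over 36 pairs, mean -0.0086. The ranges overlapped, but with 3 libraries per group this cannot settle whether the numbers pair samples. With the replicate number as a block, 7, 6, 4 and 7 factors were called. Depth limits FOS and FOSB, whose 10 to 122 counts gave the widest intervals, and a missed threshold there does not show equal levels.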
